A study of Gallus gallus with 6 samples.

Results

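Bone morphogenetic proteins (BMPs) are secreted ligands of the TGF-beta family that bind type I and type II serine/threonine kinase receptors and act through the transcription factors SMAD1, SMAD5 and SMAD9. Extracellular antagonists bind the ligands and keep them from the receptors, so the signal a cell receives depends on both. In the embryonic chick gut, BMP4 is made by the mesenchyme around the endoderm, and BMP signalling is known to act in the radial patterning of the gut wall and on enteric neural crest cells. The levels of 10 genes of this system were followed, the 7 ligands BMP2, BMP3, BMP4, BMP5, BMP6, BMP7 and GDF5 and the 3 antagonists NOG, FST and BMPER. The 10 were taken by name as a family of ligands and antagonists and matched by symbol, and each was found once among 17108 genes.

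Transcripts were profiled by RNA-seq in chick embryos at embryonic day 5 (Hamburger-Hamilton stage 26), in 3 libraries of the ceca, the paired blind outgrowths at the junction of midgut and hindgut, and 3 of the region the labels call interceca. The labels name no strain, genotype or treatment for either tissue. They do not say if a library came from 1 embryo or a pool, nor if replicates stem from different embryos. The p-values therefore reflect the spread among the 6 libraries, part of which may be technical. Levels are given as RPKM from the authors, in which each read count is divided by gene length and by library size. Genes can then be compared with one another as far as the gene lengths used are right, which was not tested.

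Reads recovered from the RPKM came to between 15741991 and 22802209 per library. Markers of the cell types in the gut wall differed between the tissues. The 12 gut epithelial markers found summed to 103 to 160 RPKM in ceca libraries and 494 to 745 in interceca, with 9 of the 10 tested lower in ceca, 1 higher, and KRT18 listed at 0 in all libraries. The 8 smooth muscle markers summed to 311 to 347 against 623 to 654 RPKM, with 6 of 8 lower. The 6 mesothelial markers found summed to 317 to 360 against 88.9 to 101 RPKM, with 4 of 5 tested higher and 1 lower. The sums of 6 markers of gut mesenchyme were closer, at 471 to 507 against 555 to 605 RPKM, with 1 of 5 tested lower. Enteric neural crest markers (6 found) summed to 2.64 to 10.7 RPKM in ceca and 14.5 to 18.4 in interceca, with 2 of 5 tested lower. At an unadjusted limma p under 0.05 all 5 were lower, with a median log2 fold change of -0.9. For 6 markers of neurons the sums were 785 to 859 against 927 to 996 RPKM with 2 lower. TUBB3 and STMN2 were the highest in these sums. At an unadjusted limma p under 0.05, 5 of the 6 were lower, with a median log2 fold change of -1.5. The sums for 8 of endothelium were 136 to 149 against 117 to 149 RPKM with 1 higher. Those for 5 of leukocytes were 24.5 to 38.3 against 19.3 to 23.1 RPKM, with 1 higher and 1 lower of 4 tested. In such bulk samples, fewer cells of a type and less RNA per cell cannot be told apart. The part of these marker differences in the results on BMP genes was not tested.

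The ceca had more BMP4 and less BMP6 and BMP3 transcript than the interceca, while BMP2 did not pass the test. The ligand BMP5 and the antagonist FST were also higher in ceca, and BMPER, a secreted BMP-binding protein, was lower. The calls of FST and BMPER each held in only 2 of 6 fits with a library removed, that of BMP5 in all 6. All 10 genes passed the filter on low values (at least 1 RPKM in at least 3 libraries) and were tested within a fit of all 10678 genes that passed it. At an adjusted p of 0.05, 5 of the 10 were higher in ceca, 3 were lower, and 2 missed the threshold (limma on log2(RPKM + 0.5), Benjamini-Hochberg adjustment over all genes tested). Over all genes tested, 27.5% were called, 13.5% as higher and 14.1% as lower in ceca. The 10 genes had a median log2 fold change of 0.36, against 0.01 over all genes tested. Since the 10 were chosen with earlier results of these data known, these contrasts describe the list and are no test of it. The number higher in ceca was 2, BMP4 and BMP5, without ceca replicate 2 or without ceca replicate 3, where GDF5 fell below the filter, and 3 with no filter. The number lower in ceca was 2 without ceca replicate 3 or any interceca library. GDF5 passed the filter only through its ceca libraries, so it had to differ, and its call adds nothing to these counts. Without GDF5, 4 of 9 genes were higher and 3 lower in ceca, with a median log2 fold change of 0.33.

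**Figure D1:**
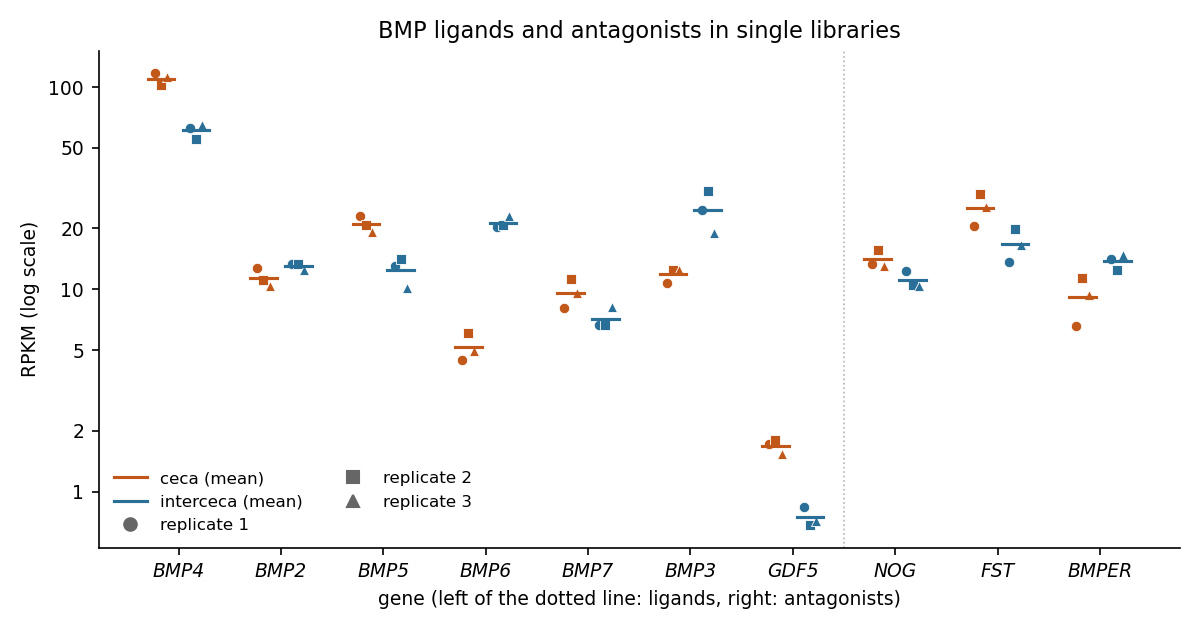
RPKM (log scale) of the 10 genes in each of the 6 libraries, with ceca in orange and interceca in blue, symbols for the replicate number and a line at the mean of 3 libraries. BMP4 is highest in both tissues, at means of 110 and 61.3 RPKM, and BMP6 shows the widest gap between tissues.

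BMP4, the most abundant of the ligands, is a mesenchymal signal of the gut that Hedgehog from the endoderm is known to induce. It stood at 117, 102 and 112 RPKM in ceca replicates 1 to 3 and at 63.1, 55.5 and 65.2 RPKM in interceca replicates 1 to 3. Every ceca library lay above every interceca library. The means were 110 ± 7.96 and 61.3 ± 5.09 RPKM (SD, n = 3 each), a ratio of 1.8, and the log2 fold change of ceca over interceca was 0.85 ± 0.08 (SE; limma adjusted p = 0.000139). It rested on 2418 to 5934 reads per library. Among the genes tested its mean level exceeded that of 93.9% in ceca and 87.1% in interceca.

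BMP2, the closest relative of BMP4 and a ligand of the same receptors, stood at 12.8, 11.1 and 10.4 RPKM in ceca and at 13.4, 13.4 and 12.5 RPKM in interceca. The tissues' libraries overlapped, since ceca replicate 1 lay above interceca replicate 3. The log2 fold change was -0.19 ± 0.09 (SE), with a 95% interval of -0.39 to 0.01 before adjustment (limma adjusted p = 0.15). Without ceca replicate 1 it was -0.27, with a limma adjusted p of 0.0487. BMP4 transcript exceeded BMP2 transcript 9.16-fold to 10.8-fold in the ceca libraries and 4.15-fold to 5.22-fold in the interceca libraries.

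BMP5, BMP6 and BMP7 form another subgroup of close relatives, and here they did not change together. BMP6 stood at 4.49, 6.05 and 4.93 RPKM in ceca and at 20.4, 20.7 and 23.1 RPKM in interceca. No library of one tissue came near those of the other. Its means of 5.16 ± 0.805 and 21.4 ± 1.49 RPKM (SD, n = 3 each) differed 4.16-fold, with a log2 fold change of -1.96 ± 0.11 (SE; limma adjusted p = 1.77e-05). The size of that change exceeded those of 98.5% of the genes tested.

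BMP5, a ligand of the same subgroup, went the other way, at 23.0, 20.8 and 19.1 RPKM in ceca and 13.1, 14.1 and 10.2 RPKM in interceca. Its libraries did not overlap between the tissues. The log2 fold change was 0.73 ± 0.12 (SE; limma adjusted p = 0.0033), from means of 21.0 ± 1.97 and 12.5 ± 2.03 RPKM (SD, n = 3 each). BMP7, the remaining ligand of this subgroup, stood at 8.11, 11.2 and 9.63 RPKM in ceca and at 6.65, 6.68 and 8.18 RPKM in interceca. Interceca replicate 3 lay just above ceca replicate 1, so the tissues overlapped for BMP7. Its log2 fold change was 0.40 ± 0.13 (SE), with a 95% interval of 0.09 to 0.70 before adjustment, and it did not pass after adjustment (limma adjusted p = 0.0581). With the replicate number as a block the adjusted p of BMP7 was 0.0288, with limma-voom on recovered reads 0.0406, and over all other settings tried it ranged from 0.0242 to 0.166. The ratio of BMP5 to BMP6 transcript was 3.44 to 5.12 in the ceca libraries and 0.443 to 0.681 in the interceca libraries. The ratio of BMP7 to BMP6 was 1.81 to 1.95 in ceca and 0.322 to 0.353 in interceca, the narrower spread of the pair. BMP6 was thus the most abundant of the 3 in interceca and the least abundant in ceca.

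BMP3, a divergent ligand that in frog and mammals is known to oppose other BMPs, was lower in ceca. It stood at 10.7, 12.5 and 12.4 RPKM in ceca and at 24.6, 30.8 and 18.9 RPKM in interceca. The interceca libraries were spread widely, yet each lay above all of ceca. Means of 11.9 ± 0.991 and 24.8 ± 5.91 RPKM (SD, n = 3 each) gave a log2 fold change of -1.01 ± 0.16 (SE; limma adjusted p = 0.00235). The coefficient of variation of BMP3 was 8.35% in ceca and 23.9% in interceca, the widest of the 10 genes in interceca.

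GDF5, a ligand best known for joint formation, was the least abundant of the 10 genes in both tissues. It stood at 1.72, 1.79 and 1.53 RPKM in ceca and at 0.84, 0.681 and 0.714 RPKM in interceca, on 83 to 103 and 33 to 41 reads. The tissues' libraries did not overlap. Its log2 fold change of 0.81 ± 0.15 (SE; limma adjusted p = 0.00603) understates the ratio of the means, 2.26, because the added 0.5 is large beside such levels. With a pseudocount of 0.1 the log2 fold change of GDF5 was 1.08, and limma-voom on recovered reads gave 1.19. With no filter on low values it was 0.81 (limma adjusted p = 0.00345).

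**Figure D2:**
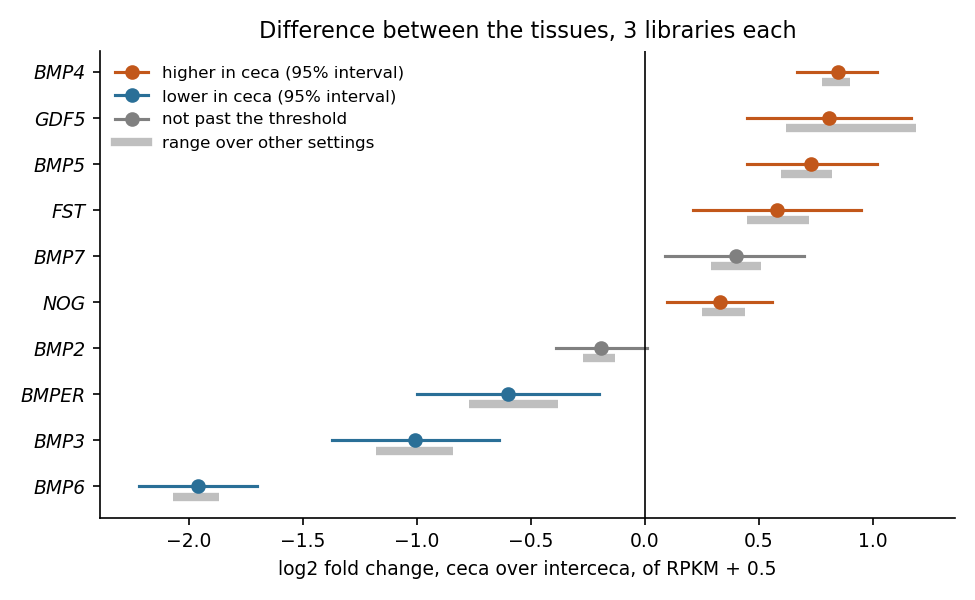
Log2 fold change of ceca over interceca for the 10 genes (points) with 95% intervals before adjustment (lines), coloured by the call, and below each the range over the other settings tried (grey bars). BMP4, GDF5, BMP5, FST and NOG lie on the ceca side and BMP6, BMP3 and BMPER on the interceca side, with BMP7 and BMP2 not past the threshold.

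The antagonists differed in direction. NOG (noggin), which binds BMP ligands and blocks both receptor sites, stood at 13.4, 15.7 and 13.1 RPKM in ceca and at 12.3, 10.5 and 10.4 RPKM in interceca. All ceca libraries lay above all interceca libraries, but ceca replicate 3 and interceca replicate 1 were close. The log2 fold change was 0.33 ± 0.10 (SE; limma adjusted p = 0.0393), from 131 to 244 reads per library. The call of NOG was lost with limma-voom (adjusted p = 0.0755), with no filter (0.059) and in 5 of 6 fits with a library removed, the exception being interceca replicate 1. The adjusted p was 0.0579 without ceca replicate 1, 0.119 without ceca replicate 2, 0.0594 without ceca replicate 3, and 0.117 and 0.118 without interceca replicates 2 and 3.

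FST (follistatin), which binds activins tightly and BMPs more weakly, stood at 20.5, 29.5 and 25.6 RPKM in ceca and at 13.6, 19.9 and 16.6 RPKM in interceca. The lowest ceca library was above the highest interceca library by less than 1 RPKM. In both tissues replicate 1 was lowest and replicate 2 highest, and the ratio between same-numbered libraries was 1.51, 1.49 and 1.54 for replicates 1 to 3. The log2 fold change was 0.58 ± 0.16 (SE; limma adjusted p = 0.0302). With the replicate number as a block the adjusted p was 0.000187, but the labels state no pairing and it was taken from these same data. Without the block the call of FST was lost without ceca replicate 2 (adjusted p = 0.092), ceca replicate 3 (0.0901), interceca replicate 1 (0.0763) or interceca replicate 3 (0.0766) and with no filter (0.0525).

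BMPER (also known as crossveinless 2), which binds BMPs and can either hinder or help signalling, was lower in ceca. It stood at 6.62, 11.4 and 9.37 RPKM in ceca and at 14.2, 12.5 and 14.8 RPKM in interceca. Ceca replicate 1 was far below the other ceca libraries, and ceca replicate 2 came within a small margin of interceca replicate 2. Its log2 fold change was -0.60 ± 0.17 (SE; limma adjusted p = 0.0353), and the interceca level was 2.14, 1.1 and 1.58 times the ceca level in same-numbered libraries. With both replicate 1 libraries left out, a setting chosen after seeing the data, the log2 fold change of BMPER was -0.38 (adjusted p = 0.087). The call was also lost without ceca replicate 3 (adjusted p = 0.0764), without interceca replicate 1, 2 or 3 (0.0839, 0.0584 and 0.108) and with no filter (0.0602).

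**Figure D3:**
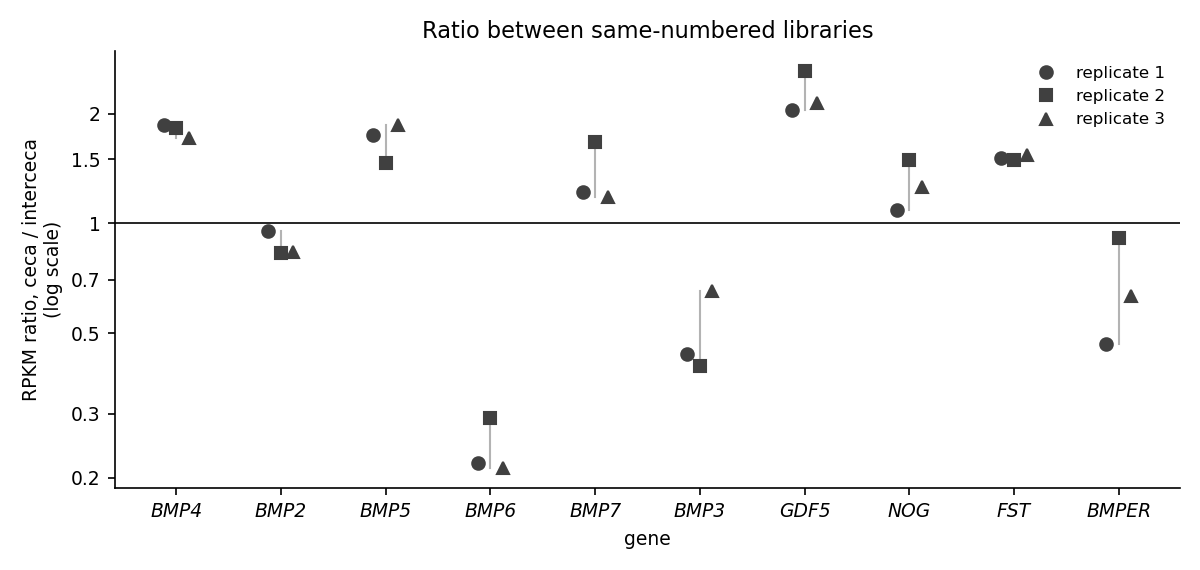
RPKM ratio of ceca over interceca (log scale) between libraries with the same replicate number, for the 10 genes, with a symbol for each replicate. The ratios of FST lie at 1.49 to 1.54, those of BMP4 at 1.72 to 1.86 and those of BMP6 at 0.213 to 0.292, while those of BMPER spread from 0.467 to 0.91.

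In all, the libraries of the tissues did not overlap for 8 of the 10 genes, 5 higher and 3 lower in ceca. For GDF5 this was fixed in advance, since it passed the filter only through its ceca libraries. Without GDF5 the count was 7 of 9, with 4 higher. Of all genes tested, 44.1% did not overlap, 23.0% being higher and 21.1% lower in ceca. With the replicate block 6 of the 10 genes were higher and 3 lower, against 17.6% and 17.7% of all genes tested. For the 8 genes without overlap, same-numbered libraries had to differ in the direction of the means. Those of BMP2 and BMP7, which overlapped, also did so, and the share over all genes tested was not computed. The authors' deposited table holds their own comparison, read here as log2 of ceca over interceca. It gives log2 fold changes of the same sign for the 10 genes, from -2.05 for BMP6 to 1.19 for GDF5. At an adjusted p of 0.05 the authors' deposited table calls BMP7 (0.00589) and does not call NOG (0.114) or BMP2 (0.457).

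The order of levels differed between the tissues. In ceca it ran BMP4 (110 RPKM), FST (25.2), BMP5 (21.0), NOG (14.1), BMP3 (11.9), BMP2 (11.4), BMP7 (9.63), BMPER (9.12), BMP6 (5.16) and GDF5 (1.68). In that order FST overlapped with BMP5, and each of BMP3, BMP2 and BMP7 with the next, so their ranks are not separated by the libraries. In interceca it ran BMP4 (61.3 RPKM), BMP3 (24.8), BMP6 (21.4), FST (16.7), BMPER (13.8), BMP2 (13.1), BMP5 (12.5), NOG (11.1), BMP7 (7.17) and GDF5 (0.745). There BMP3 overlapped with BMP6, and each of FST, BMPER, BMP2 and BMP5 with the next. BMP4 stood clear of the next gene in both tissues.

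BMP4 made up 65.8%, 61.6% and 66.0% of the summed RPKM of the 7 ligands in ceca replicates 1 to 3, and 44.4%, 39.1% and 46.9% in interceca. BMP6 and BMP3 made up more of the sum in interceca, BMP6 with 14.4% to 16.7% against 2.52% to 3.66% in ceca, and BMP3 with 13.6% to 21.7% against 6.02% to 7.58%. The 7 ligands summed to 165 to 178 RPKM in ceca and 139 to 142 in interceca. Without BMP4 the order turned, with sums of 58.0 to 63.5 RPKM in ceca and 73.7 to 86.4 in interceca. The 3 antagonists summed to 40.5 to 56.6 RPKM in ceca and 40.1 to 42.9 in interceca, ranges that overlapped. Transcript of the 7 ligands exceeded that of the 3 antagonists 2.92-fold to 4.4-fold in ceca and 3.31-fold to 3.55-fold in interceca, also overlapping. The make-up of the antagonists differed, with FST at 50.6% to 53.3% and BMPER at 16.3% to 20.1% in ceca, against 33.9% to 46.3% and 29.2% to 35.4% in interceca. The ratio of BMP4 to NOG was 6.48 to 8.75 in ceca and 5.12 to 6.29 in interceca. The sums and their ratio hold for these 7 ligands and 3 antagonists only, with BMP3 counted as a ligand. Other antagonists were left out, such as CHRDL1 (means of 13.2 RPKM in ceca and 28.6 in interceca) and CHRD (4.41 and 3.97). Such sums describe transcripts only, and no test was made on them.

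**Figure D4:**
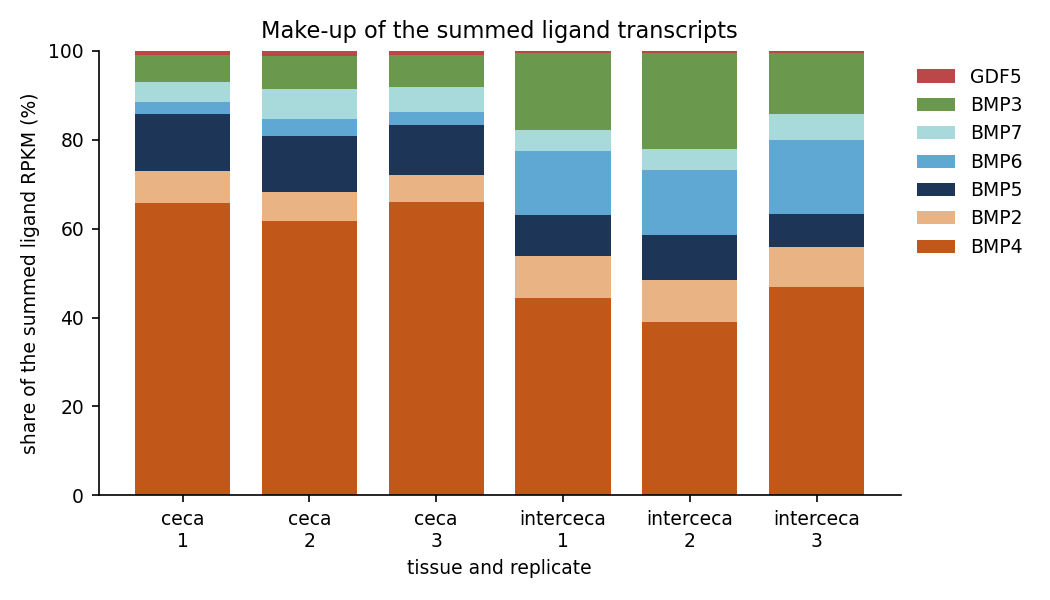
Share of each ligand in the summed RPKM of the 7 ligands (percent) in each of the 6 libraries. BMP4 takes 61.6% to 66.0% in the ceca libraries and 39.1% to 46.9% in the interceca libraries, where BMP6 and BMP3 take more.

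Beyond these genes, 59 other genes of the pathway were listed, 50 were found in the files and 34 passed the filter. Of these 34, 5 were higher and 3 lower in ceca and the other 26 missed the threshold, which is 23.5% called, against 27.5% of all genes tested. SMAD9, among the lower, passed the filter only through interceca and so had to differ, and without it 21.2% of 33 were called. Receptors bind the ligands and carry the signal inward. Of 11 receptors and co-receptors tested, 1 was lower, 0 were higher and 10 missed the threshold (limma), with a median log2 fold change of 0.05. That is 9.09% called. At an unadjusted p under 0.05, 2 were higher and 2 lower. Limma-voom called 0 as higher and 1 as lower, while 1 was higher with the replicate block or without both replicate 1 libraries and 2 without ceca replicate 1. The gene that was lower is TGFBR3, betaglycan, a co-receptor that binds TGF-beta and some BMP ligands, at 15.4 ± 0.444 RPKM in ceca and 21.7 ± 0.929 in interceca (SD, n = 3 each; log2 fold change -0.48 ± 0.06 SE, limma adjusted p = 0.000682). The type I receptor BMPR1A stood at 22.7, 30.0 and 28.3 RPKM in ceca and at 21.2, 21.5 and 22.9 RPKM in interceca. Ceca replicate 1 lay among the interceca libraries. Its log2 fold change was 0.29 ± 0.10 (SE; limma adjusted p = 0.0675), and the adjusted p was 0.0234 with the replicate block and 0.00427 without ceca replicate 1. The type II receptor BMPR2 had a log2 fold change of 0.18 ± 0.07 (SE; limma adjusted p = 0.112, and 0.045 without ceca replicate 1). BMPR1B, another type I receptor, had one of 0.05 ± 0.17 (SE; limma adjusted p = 0.86), with a 95% interval of -0.34 to 0.44, and was much lower in level, at 2.93 and 2.82 RPKM. ACVRL1, a type I receptor of endothelial cells, was listed at 0 in all libraries.

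The intracellular mediators carry the signal to the nucleus or limit it. Of 6 tested, 2 were higher in ceca, 1 was lower and 3 missed the threshold, with a median log2 fold change of 0.07. Over all genes tested, 13.5% were higher and 14.1% lower in ceca. The lower mediator, SMAD9, passed the filter only through interceca and so had to differ, and its call adds nothing to the count. The number of mediators higher in ceca was 0 without ceca replicate 1, 2 or 3 or without interceca replicate 3. It was also 0 without both replicate 1 libraries, and 1 without interceca replicate 1 or 2. SMAD9, a receptor-activated SMAD, was lower in ceca at 0.662 ± 0.143 against 1.61 ± 0.259 RPKM (SD, n = 3 each; log2 fold change -0.86 ± 0.18 SE, limma adjusted p = 0.00976), on 20 to 29 reads in ceca. It fell below the filter at 5 RPKM and when an interceca library was left out, so the number lower was then 0. SMAD6, an inhibitory SMAD that BMP signalling is known to induce, stood at 12.4, 10.6 and 10.5 RPKM in ceca and at 8.97, 8.92 and 7.33 RPKM in interceca. The libraries of SMAD6 did not overlap, and its log2 fold change was 0.39 ± 0.11 (SE; limma adjusted p = 0.0273). Its call was lost without any ceca library (adjusted p = 0.0796, 0.0516 and 0.0533 without ceca replicates 1 to 3), without interceca replicate 3 (0.0756) and without both replicate 1 libraries (0.0731). SMURF2, a ubiquitin ligase that targets SMADs and receptors for breakdown, had a log2 fold change of 0.23 ± 0.06 (SE; limma adjusted p = 0.025), but in none of 6 fits with a library removed was it called, with adjusted p of 0.0559 without interceca replicate 1 to 0.0733 without interceca replicate 2. SMAD7 was listed at 0 in all libraries, while a separate gene named Smad7a in the files, chosen after its values were seen, stood at 10.5 ± 0.85 against 8.45 ± 1.11 RPKM (SD, n = 3 each; limma adjusted p = 0.0789, and 0.0361 with the replicate block and 0.0285 without interceca replicate 1).

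Among other extracellular regulators, 2 of 11 tested were higher in ceca, 1 was lower and 8 missed the threshold, with a median log2 fold change of -0.10. The share called, 27.3%, was near the 27.5% of all genes tested. With the replicate block 3 were higher and 4 lower, against 17.6% and 17.7% of all genes tested. The number lower was 3 with limma-voom and 3 without interceca replicate 3. TLL1, a tolloid-like protease known to cleave the antagonist chordin and so free BMPs, stood at 19.1, 19.3 and 19.7 RPKM in ceca and at 6.8, 5.7 and 5.79 RPKM in interceca. The gap between tissues was many times the spread within them. TLL1 had a log2 fold change of 1.60 ± 0.08 (SE; limma adjusted p = 1.23e-05). CHRDL1, a chordin-like antagonist, was lower in ceca at 14.1, 12.2 and 13.2 RPKM against 30.3, 26 and 29.4 RPKM in interceca, with a log2 fold change of -1.09 ± 0.08 (SE; limma adjusted p = 5.75e-05). TLL1 and CHRDL1 were called with the same sign in each of the 14 other settings tried. CHRD, chordin itself, had a log2 fold change of 0.13 ± 0.11 (SE; limma adjusted p = 0.436) with a 95% interval of -0.13 to 0.39. GREM1 was below the filter, at 0 to 0.0541 RPKM in ceca and 0.0745 to 0.51 in interceca.

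Genes that BMP signalling is known to induce were listed as targets. Of 9 found, 5 passed the filter, 1 of them was higher in ceca and 4 missed the threshold, with a median log2 fold change of 0.06. Over all genes tested, 13.5% were higher and 14.1% lower in ceca. The number of targets higher in ceca was 2 with the replicate block and 0 without ceca replicate 3. The gene that was higher is ID2, an inhibitor of basic helix-loop-helix factors, at 525, 534 and 571 RPKM in ceca and 425, 444 and 480 RPKM in interceca. The libraries of ID2 did not overlap. ID2 had a log2 fold change of 0.27 ± 0.06 (SE; limma adjusted p = 0.012), with an adjusted p of 0.0552 without ceca replicate 3 and 0.0506 without interceca replicate 2. ID3, of the same family, had a log2 fold change of 0.21 ± 0.07 (SE; limma adjusted p = 0.0631, and 0.0462 with the replicate block). ID1, a target often used as a readout of the pathway, had one of 0.03 ± 0.12 (SE; limma adjusted p = 0.892), with a 95% interval of -0.26 to 0.31, and a sign that turned when single libraries were left out. BAMBI, a pseudoreceptor that BMP signalling induces, stood at 13.8 ± 0.469 and 13.6 ± 0.608 RPKM (SD, n = 3 each), with a 95% interval of -0.13 to 0.17 for its log2 fold change and a sign that also turned. The homeobox targets MSX1 and MSX2 were below the filter, MSX1 at 0 to 0.0936 RPKM in ceca and 0.182 to 0.718 in interceca, and MSX2 at 0.216 to 0.569 and 0.0447 to 0.291 RPKM. Of the 6 other ligands found, GDF3 alone passed the filter, with a log2 fold change of 0.07 ± 0.08 (SE; limma adjusted p = 0.588), and BMP10 and GDF9 were listed at 0 in all libraries.

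**Figure D5:**
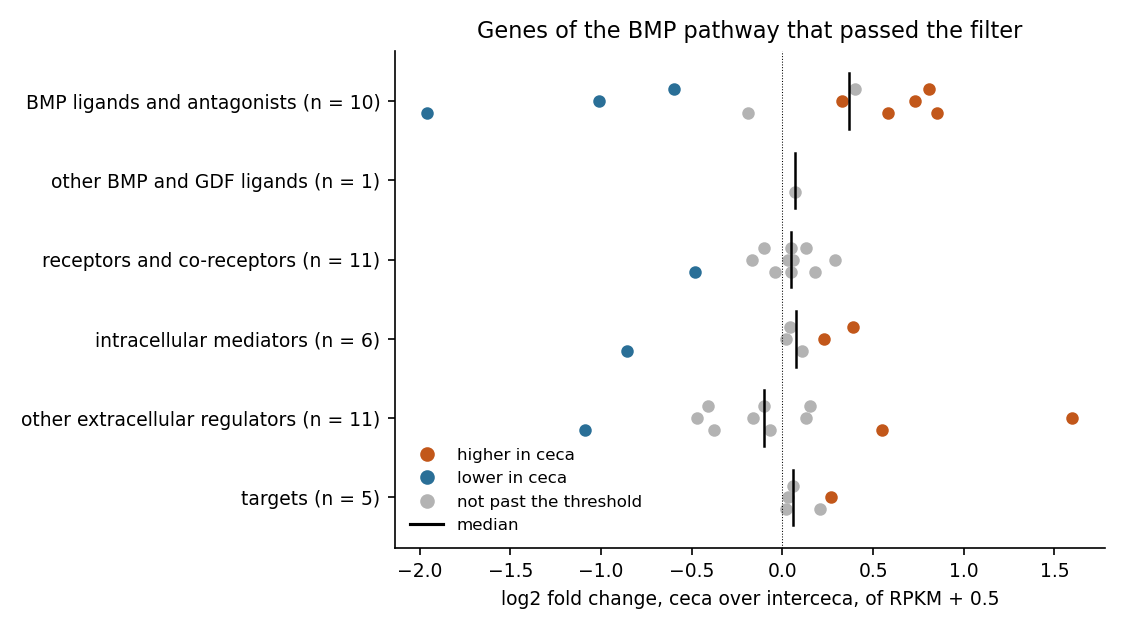
Log2 fold change of ceca over interceca for the 10 BMP ligands and antagonists and for the genes of 5 further pathway lists that passed the filter, each point a gene coloured by its call and each line the median of its list. The lists of receptors, intracellular mediators, targets and other extracellular regulators have medians of 0.05, 0.07, 0.06 and -0.1, and the 10 genes 0.36. The receptor gene TGFBR3 at -0.48 and the mediator SMAD9 at -0.86 lie apart from the medians of their lists. SMAD9 passed the filter only through interceca. Single genes among the 10 and the other extracellular regulators spread from -1.96 to 1.60.

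The genes whose pattern over the 6 libraries was most like that of BMP4, by the Euclidean distance between log2(RPKM + 0.5) profiles centred on their own means, were PDE10A (distance 0.128), ZFYVE28 (0.136), TSPAN4 (0.155), TFPI2 (0.17) and PPM1E (0.174). PDE10A, a cyclic nucleotide phosphodiesterase, stood at 23.6 ± 1.9 RPKM in ceca and 12.9 ± 1.39 in interceca (SD, n = 3 each). The other genes had log2 fold changes of 0.78 to 0.95. They were the nearest among those of the 10678 genes tested that have a symbol, and genes without one were left out of the ranking. With 6 libraries in 2 tissues this likeness describes these libraries only.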

How the data were processed

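The authors deposited RPKM, 1 file per library and a table of the whole series holding the same values (0 differences over 6 files). That table is titled FPKM but headed RPKM. The submitters' processing notes name bcl2fastq, STAR, HTSeq, edgeR and the build galGal4. For their roles, versions and use of strand, nothing is given in the sources used here, so overlapping and antisense genes are uncertain. Per the file headers, the deposited table also holds the authors' log2 fold change, p-values before and after adjustment, and their −log10. The 1 row without a gene name, a column total, was left out.

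RPKM are not counts, so log2(RPKM + 0.5) was tested with limma 3.58.1 in R 4.3.3 (lmFit, eBayes with a trend, two-sided) over 10678 genes reaching 1 RPKM in 3 or more libraries, with Benjamini-Hochberg adjustment and a threshold of 0.05. The fit had 4 residual degrees of freedom for each gene and 3.85 prior ones from the trend over all genes tested. Fold changes are on the log2(RPKM + 0.5) scale, which understates low genes. Whole reads were recovered from the steps of the RPKM, within 0.01 read, for 100% of the genes tested, and were used for limma-voom. A gene's recovered reads are the smallest whole numbers in the ratio of its values, so a common factor may be missed. Relative to interceca replicate 1, the library sizes behind the steps differed from the recovered totals by up to 1.47%. The totals themselves were not checked. The fit was tested on simulated data.

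The members and lists were chosen with earlier results of these data known. Named are the 10 genes, 11 further genes fixed for their roles and up to 4 genes per list and direction with the smallest p. Also named are the 5 profiles nearest to the most abundant member among genes with a symbol. A gene that this rule takes is not reported here. Of the pathway genes found, 4 matched an older symbol in RefSeq's table for GRCg7b, whose coordinates were not used. Same-numbered libraries were taken as pairs because their deviations from the tissue means correlated, across genes, at 0.364, 0.227 and 0.213, and other pairs at -0.238 to 0.0314. Deviations cancel within a tissue, so higher correlations in some pairs lower those in others, and this contrast is partly built in. The labels do not state a pairing, so the fits with the replicate block rest on one taken from these same data.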

Additional observations from a re-analysis of the deposited data

How the results depend on the processing

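The counts of called genes and the fold changes of the named genes that passed the filter were recomputed under 13 planned settings and 1 chosen after seeing the data, save where a gene then fell below the filter. Marker sums, ligand sums and ratios, orders of level, counts of libraries not overlapping and nearest profiles were not recomputed. BMP3, BMP4, BMP5 and BMP6 kept their direction and call in all 14. GDF5 did so in the 10 in which it was tested. That adds nothing where it passed the filter through its ceca libraries alone and so had to differ. Of the 10 genes, the number higher in ceca was 3 with no filter on low values, 6 with the replicate block and 2 (without ceca replicate 2 or 3) to 4 when 1 library was left out, and the number lower was 2 with no filter and 2 to 4 when 1 library was left out. GDF5 fell below the filter when a ceca library was left out and at 5 RPKM, which lowers the first number by 1. Over all genes tested, 1439 were higher in ceca and 1502 lower. With 1 library left out the ranges were 900 (without ceca replicate 3) to 1286 and 999 (without interceca replicate 2) to 1316, and with the replicate block the counts were 1879 and 1888.

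Among genes that did not pass the test, the log2 fold change of BMPR1B ranged from -0.069 to 0.18, that of ID1 from -0.0543 to 0.17 and that of BAMBI from -0.0121 to 0.0501 when 1 library was left out. Without both replicate 1 libraries those of ID1 and BAMBI were -0.12 and -0.0168. The cause was not tested. The replicate block changed no call among the named genes other than those of BMP7, BMPR1A, ID3 and Smad7a. GDF5 rested on 33 to 41 reads in interceca and SMAD9 on 20 to 29 in ceca. The intervals rest on the spread of 3 libraries a tissue, drawn toward the trend over all genes tested.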
